A study of Mus musculus with 192 samples.

Results

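Mouse bone marrow-derived dendritic cells were given PAM, LPS and cGAMP together, and this triplet was compared with each pair of the same ligands, PAM + LPS, PAM + cGAMP and LPS + cGAMP. The question was what an added ligand does in cells that already receive the other two. The comparison rests on 12 of the 192 libraries of the series, 3 for each of the 4 groups, chosen by their ligand labels alone. Single ligands and Ctrl, the group without ligand (3 libraries each), served to measure what each ligand did on its own.

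All groups were cultures of bone marrow from female C57BL/6J mice aged 6 to 8 weeks, grown with the growth factor GM-CSF, and all were lysed after 6 hours of stimulation. The labels name no genetic change and set the groups apart by ligand only. The labels write the cyclic dinucleotide as 3',3'-cGAMP and do not spell out PAM. Ligand doses, and whether replicates are separate mice or cultures, are not given in the sources used here, so p-values measure only the spread between replicate libraries, which may be technical. That spread was estimated over all 64 groups of the series together, and not from the 12 libraries alone.

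The ligands enter innate immune signalling at different points. PAM is the usual name for synthetic lipopeptides that mimic bacterial lipoproteins and are sensed by Toll-like receptor TLR2, which signals through the adaptor MyD88 to NF-kB and MAP kinases. LPS, from the outer membrane of Gram-negative bacteria, is sensed by TLR4, which uses MyD88 and also the adaptor TRIF, and through TRIF the factor IRF3 and type I interferon. The 3',3' form of cGAMP is a bacterial second messenger that binds the protein STING inside the cell, which also leads to IRF3 and interferon-beta and, more weakly, to NF-kB. Interferon-beta then acts on its receptor and induces a second wave of antiviral genes.

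The 12 libraries held 116312 to 333995 unique molecular identifiers (UMIs, each marking 1 original cDNA molecule), against a median of 171616.5 over all libraries. Levels of genes are given in CPM, the usual depth-scaled count. It was taken over the UMIs of the tested genes and scaled by TMM normalisation factors. Summed marker levels are CPM over all UMIs of a library, without these factors. No replicate libraries held identical values. In the PAM + LPS group, replicate 1 was the shallowest library of the 12 and stood apart from its partners: it differed from them by a chi-square per degree of freedom of 2.066 and 2.115, while replicates 2 and 3 differed by 1.303. Triplet libraries differed among themselves by 1.534 to 1.952, and libraries of the other pairs by at most 1.24. Because the tests take their spread from all groups, it can be too small for the triplet and PAM + LPS. Triplet replicate 3 was high for Ifnb1 (538 CPM against 197 and 193), Il12b and Bcl3. For most named genes, calls that rest on these libraries are given with and without them. Some genes, such as Saa3, C3, Fcgr1 and Ly6c2, are given in the full fit only. Of 10 dendritic cell markers, such as Itgax and Ccl22, Cd209a was at 0 in all 12 libraries and the list summed to 3930 to 5524 CPM. The macrophage and monocyte list summed to 1591 to 2686 CPM. Markers of T and NK cells summed to at most 5.825 CPM and the 6 erythroid markers were at 0. In bulk RNA, fewer cells of a type and less RNA per cell cannot be told apart.

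cGAMP changed more genes when added to PAM + LPS than LPS or PAM did when added to their pairs, and the 7 genes called with PAM, most of them inflammatory genes or their regulators, were all higher. A gene was called at a Benjamini-Hochberg adjusted p under 0.05 in edgeR's quasi-likelihood test with a log2 fold change of at least 1 in size. Of 4720 genes tested, cGAMP added to PAM + LPS raised 56 (1.19%) and lowered 74 (1.57%), together 2.75%. LPS added to PAM + cGAMP raised 22 (0.466%) and lowered 19 (0.403%), together 0.869%. PAM added to LPS + cGAMP raised 7 (0.148%) and lowered 0, although 319 genes (6.76%) had an unadjusted p under 0.05 in either direction and DESeq2 called 1 lower gene. By adjusted p alone the counts were 89 (1.89%) and 138 (2.92%) for cGAMP, in all 4.81%, 36 (0.763%) and 40 (0.847%) for LPS, and 17 (0.36%) and 1 (0.0212%) for PAM. An unadjusted p under 0.05 was found for 14.9% of genes with cGAMP and 10.4% with LPS. Triplet and pair libraries did not overlap for 110 of the 130 genes called with cGAMP, 40 of 41 with LPS and 7 of 7 with PAM. Over all genes, the triplet libraries lay wholly above the pair for 8.26%, 7.25% and 5.97% of genes, and wholly below it for 9.07%, 8.11% and 5.85%. The 3 comparisons share the triplet libraries, and each also has pair libraries of its own. Without triplet replicate 3, the counts for PAM dropped to 3 higher and 0 lower, and for LPS to 12 and 8. PAM + LPS held the deepest library of the 12. Thinning all libraries to equal totals took each to 46564 UMIs, the lowest total of the series and below all 12. It therefore left fewer counts in each of them, and a call lost with thinning does not measure unequal depth alone. With thinning (1834 genes tested) the calls were 20 higher and 17 lower for cGAMP, 17 and 6 for LPS and 5 and 2 for PAM. Of these 37, 23 and 7 genes, 30, 12 and 2 were among the calls at full depth. The share of calls that were higher moved with thinning from 43.1% to 54.1% for cGAMP, from 53.7% to 73.9% for LPS and from 100% to 71.4% for PAM. Leaving out PAM + LPS replicate 3, the deepest of that pair, reduced the cGAMP counts to 30 and 41. Of the LPS calls 66.7% were higher when libraries were scaled by their size alone.

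**Figure D1:**
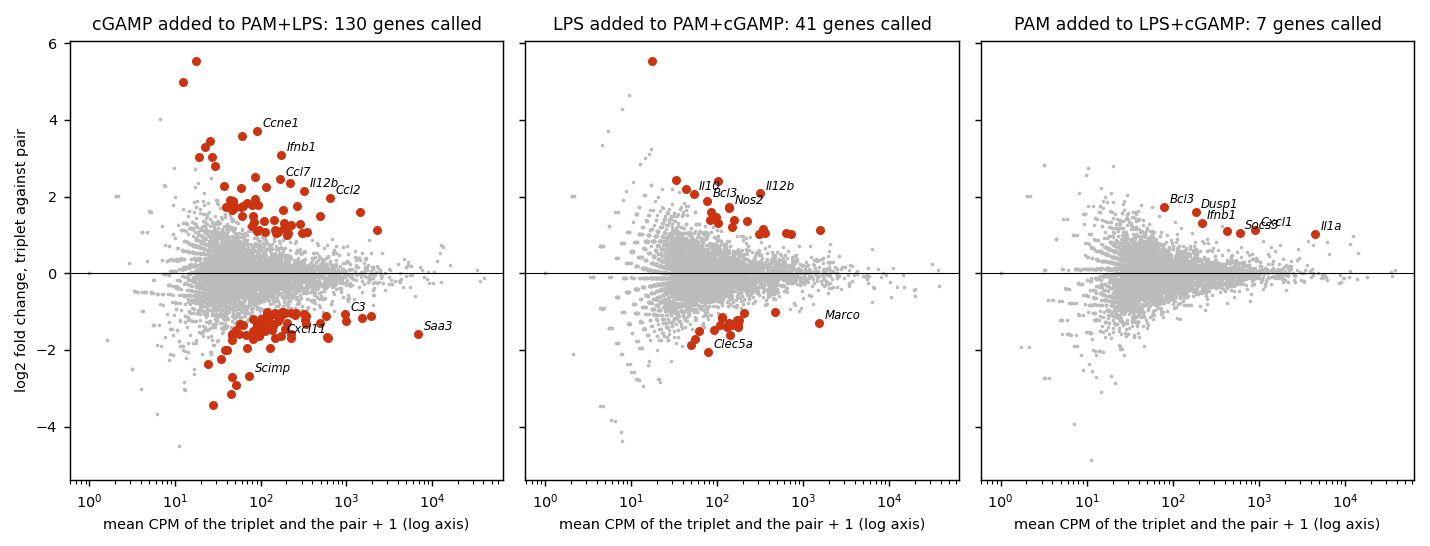
Log2 fold change (triplet against pair, y axis) against mean CPM + 1 (x axis, log scale) for each of the 4720 tested genes, 1 panel for each added ligand; called genes are red. The cGAMP panel has red points on both sides of 0 (56 above, 74 below), the LPS panel fewer (22 and 19), and the PAM panel 7, all above 0.

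Genes raised by cGAMP included interferon-beta, chemokines that attract monocytes, and a few genes with 0 to 2 UMIs over the 3 PAM + LPS libraries. Ifnb1, which encodes interferon-beta and lies at chr4:88522025-88522794 (RefSeq, GRCm38.p6), stood at 197, 193 and 538 CPM in the triplet and at 27.3, 58.8 and 24.8 CPM in PAM + LPS. It measured 318, 219 and 260 CPM in PAM + cGAMP and 96.3, 131 and 140 CPM in LPS + cGAMP. All triplet libraries lay above all PAM + LPS libraries, and the triplet overlapped PAM + cGAMP. The log2 fold change over PAM + LPS was 3.09 ± 0.35 (SE, adjusted p = 4.42e-13 in edgeR), and 2.40 (adjusted p = 6.14e-06) without triplet replicate 3.

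Ccl2, the main chemoattractant for monocytes (chr11:82035577-82037452), was at 1032, 901 and 1207 CPM in the triplet and at 210, 272 and 294 CPM in PAM + LPS. Its levels in PAM + cGAMP (953, 861 and 964 CPM) and LPS + cGAMP (735, 906 and 754 CPM) were near those of the triplet. So the 3 groups with cGAMP lay well above the group without it, by 1.97 ± 0.21 (log2, SE, adjusted p = 9.31e-14) for the triplet. Ccl7, a related monocyte chemoattractant next to it on the chromosome, was at 183, 307 and 394 CPM against 0, 37.4 and 88.6 CPM, a log2 fold change of 2.45 ± 0.36 (adjusted p = 3.83e-08). Ccl7 was called in all 20 alternative settings, with values from 1.995 to 3.627. Tnfsf15, a TNF-family cytokine that costimulates T cells, was at 2324, 2023 and 2220 CPM against 756, 545 and 837 CPM. It rose by 1.61 ± 0.20 (log2, adjusted p = 4.41e-11), again with no overlap. Oasl1, an interferon-induced gene of the OAS family, was at 3068, 3267 and 3189 CPM against 1230, 1517 and 1560 CPM, or 1.13 ± 0.18 (log2, adjusted p = 5.57e-07).

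Ccne1 and Pcna, both cell cycle genes, were among the rises. Ccne1, which encodes cyclin E1, the cyclin of entry into DNA replication, was at 183, 172 and 150 CPM in the triplet and 9.11, 10.7 and 14.2 CPM in PAM + LPS. It was at 158 ± 31.4 CPM (SD, n = 3) in PAM + cGAMP and 174 ± 33.3 CPM in LPS + cGAMP, and at 50.2 CPM on average in cGAMP alone. The fold change over PAM + LPS was 3.72 ± 0.55 (log2, adjusted p = 4.52e-08). Pcna, the sliding clamp of DNA polymerase, rose by 1.05 ± 0.22 (log2, adjusted p = 0.000234), from 182, 187 and 209 CPM to 470, 422 and 331 CPM. Only 7 of 22 cell cycle genes passed the filter on low counts, and the other 5 tested were not called, so that 2 of 7 were higher, where 1.19% of all genes were. Pcna fell short of the fold threshold without triplet replicate 1 (0.93, adjusted p = 0.00903), and its call was lost with thinning (1.02, adjusted p = 0.133).

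Several of the largest ratios rest on few molecules. Pax4, a transcription factor gene known from the pancreas, had 15 UMIs over the triplet libraries and 0 over PAM + LPS, at least 6.55-fold higher when 3 UMIs are taken as the limit for the pair. It was at 26.5 to 47.9 CPM in PAM + cGAMP and 17.5 to 48.4 CPM in LPS + cGAMP. Intu, a gene for cilium formation, was at 154, 71.5 and 106 CPM against 9.11, 5.34 and 10.6 CPM, with a log2 fold change of 3.58 ± 0.56 (adjusted p = 4.52e-07). Klf8, a Krüppel-like transcription factor gene, had 20 UMIs against 2, a ratio of 13.1 once the deeper sequencing of PAM + LPS is taken into account (exact 95% interval 3.18 to 115.5). Atp13a4, a gene for a cation-transport ATPase, had 18 against 2 (11.8 after the same scaling, interval 2.82 to 104.7), and Trmt2a, for a tRNA methyltransferase, 15 against 2 (9.82 scaled, interval 2.28 to 88.5). Among the groups without cGAMP, Trmt2a was at a mean of 77.8 CPM in Ctrl, 54.8 CPM in PAM, 22.4 CPM in LPS and 2.96 CPM in PAM + LPS, against 33.6 CPM in the triplet. Bambi, for a decoy receptor of TGF-beta signalling, had 10 UMIs against 0, at least 4.36-fold higher, and stood at a mean of 17.6 CPM in Ctrl against 22.8 CPM in the triplet, while its pseudogene Bambi-ps1 had 2 against 34, 12.98-fold lower after scaling (interval 3.33 to 111.6). How reads that match both were assigned is not given in the sources used here, so both values are uncertain. Counting intervals cover counting error only. Without PAM + LPS replicate 3, the calls of Pax4, Klf8, Atp13a4, Trmt2a, Bambi and Bambi-ps1 were lost, with adjusted p from 0.064 to 0.133. That of Bambi was lost without PAM + LPS replicate 2 too (adjusted p = 0.0556), and that of Trmt2a without triplet replicate 2 (0.0703) or 3 (0.0896).

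Il12b, the p40 subunit of interleukins 12 and 23, which direct T helper cells, spread widely between libraries of a group. The triplet libraries held 477, 186 and 863 CPM. PAM + LPS held 228, 107 and 70.9 CPM, PAM + cGAMP 185, 123 and 68.4 CPM, and LPS + cGAMP 315, 208 and 172 CPM. The highest values are triplet replicates 1 and 3, while triplet replicate 2 falls among the pair libraries. Adding cGAMP raised it by 2.15 ± 0.36 (log2, adjusted p = 1.64e-06) and adding LPS by 2.08 ± 0.38 (adjusted p = 8.9e-05), while the value for PAM was 1.23 ± 0.33 (adjusted p = 0.0547). Without triplet replicate 3 these values were 1.51 (adjusted p = 0.0144), 1.45 (0.0753) and 0.59 (0.898).

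Genes lowered by cGAMP included some that cGAMP alone had raised. Cxcl11, a chemokine for CXCR3-bearing T cells, was at 98.3, 85.8 and 81.3 CPM in the triplet and 91.1, 321 and 347 CPM in PAM + LPS. Replicate 1 of PAM + LPS lay inside the triplet range and the other PAM + LPS libraries far above it. The fall was 1.64 on the log2 scale as fitted (log2 fold change -1.64 ± 0.35, adjusted p = 0.00036) and -1.92 without that replicate (adjusted p = 1.69e-05). With thinning it was -0.72 and not called (adjusted p = 0.586). Isg20, an interferon-induced exonuclease gene, was at 197, 179 and 269 CPM against 301, 513 and 546 CPM (-1.13 ± 0.23, adjusted p = 0.000201). Socs1, the inhibitor of cytokine receptor signalling, was at 176, 229 and 231 CPM against 392, 422 and 486 CPM (-1.05 ± 0.21, adjusted p = 0.000113). The libraries of Isg20 and Socs1 do not overlap between triplet and pair. Without PAM + LPS replicate 3, Isg20 (-0.97, adjusted p = 0.0203) and Socs1 (-0.94, adjusted p = 0.00863) fell short of the fold threshold, as did Socs1 without triplet replicate 1 (-0.94, adjusted p = 0.00522). Both calls were lost with thinning (Isg20 -1.07, adjusted p = 0.112, and Socs1 -1.14, adjusted p = 0.0795).

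Scimp, a transmembrane adaptor of antigen-presenting cells that takes part in TLR signalling, was at 21.1, 7.15 and 31.3 CPM in the triplet and at 72.9, 160 and 145 CPM in PAM + LPS. Its values in PAM + cGAMP (88.2, 82.0 and 61.5 CPM) and LPS + cGAMP (61.3, 48.4 and 45.1 CPM) also lay above every triplet library. The log2 fold change was -2.68 ± 0.46 for added cGAMP (adjusted p = 3.75e-06), -1.87 ± 0.54 for added LPS (adjusted p = 0.0412) and -1.27 ± 0.58 for added PAM (adjusted p = 0.666). Fas, the death receptor, was at 49.1, 28.6 and 18.8 CPM against 109, 118 and 78.0 CPM in PAM + LPS (-1.61 ± 0.43, adjusted p = 0.00862), and missed the threshold without triplet replicate 3 (adjusted p = 0.114) or PAM + LPS replicate 2 (0.0648). Tnfsf10, the death ligand TRAIL, was at 70.2, 50.0 and 87.5 CPM against 27.3, 219 and 191 CPM, so that PAM + LPS replicate 1 lay below the triplet. Its value was -1.22 ± 0.36 (adjusted p = 0.0209), and -1.53 (adjusted p = 0.00119) without that library, but it was not called without triplet replicate 1 (0.0713) or 2 (0.155), without PAM + LPS replicate 2 (0.218) or 3 (0.246), in DESeq2 (0.118) or with thinning (-0.94, adjusted p = 0.56). Tagap, a GTPase-activating gene of immune cells, B630005N14Rik, Stk10, a lymphocyte kinase gene, and Pdk3, a pyruvate dehydrogenase kinase gene, completed the largest falls, with log2 fold changes of -2.71, -2.91, -2.38 and -2.23. Stk10 had only 3 UMIs in the triplet against 22, and its call was lost when any of the 6 libraries was left out (adjusted p from 0.0556 to 0.244). It was also lost with no filter on low counts (0.103), RLE factors (0.0531) and library size alone (0.0527). Pdk3 was not called without triplet replicate 1 (0.19) or 2 (0.0552) or PAM + LPS replicate 2 (0.128). The LPS call of Scimp was lost without any 1 triplet library or PAM + cGAMP replicate 1 or 2 (adjusted p from 0.0575 to 0.245), with no filter (0.087) and with library size alone (0.0522).

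Of 15 sterol genes tested, cGAMP lowered 3 (Idi1, Ch25h and Abcg1), where 1.57% of all genes were lowered, and raised 0, and their median log2 fold change was -0.76, beside -0.0296 for all genes. Without PAM + LPS replicate 3, 2 were called lower and the median was -0.575. Outside the list, and chosen after their values were seen, Insig2, a regulator of sterol synthesis, was called higher (1.89 ± 0.56, adjusted p = 0.0206) and Sc4mol, a sterol methyl oxidase, lower (-1.61 ± 0.51, adjusted p = 0.0408). Each was lost with any of several single libraries left out: Insig2 without triplet replicate 1 (1.36, adjusted p = 0.334) or PAM + LPS replicate 2 (0.131) or 3 (0.099), and Sc4mol without triplet replicate 1 (0.201) or 3 (0.163) or PAM + LPS replicate 2 (0.291) or 3 (0.0864). Sc4mol was also lost with RLE factors (0.0523), library size alone (0.0514) and no filter on low counts (0.0834). Idi1, an isomerase of cholesterol synthesis, was at 63.2, 35.7 and 56.3 CPM against 100, 155 and 177 CPM in PAM + LPS (-1.54 ± 0.32, adjusted p = 0.000315), and was not called with thinning (-1.02, adjusted p = 0.488). Abcg1, a cholesterol exporter, was at 112, 186 and 188 CPM against 219, 502 and 294 CPM (-1.09 ± 0.24, adjusted p = 0.000538). Ch25h, which makes the antiviral sterol 25-hydroxycholesterol, was at 379, 386 and 381 CPM against 337, 860 and 1152 CPM (-1.13 ± 0.20, adjusted p = 9.65e-06). The triplet values of Ch25h were close together, and its PAM + LPS values spanned from below them to 1152 CPM. Leaving out PAM + LPS replicate 1 moved Ch25h to -1.41, and leaving out replicate 3 to -0.73, which was not called (adjusted p = 0.0604). Abcg1 was not called without triplet replicate 1 (-0.89, adjusted p = 0.0251) or PAM + LPS replicate 2 (-0.72, adjusted p = 0.123). With LPS or PAM added, none of the 15 was called, the medians were -0.178 and -0.0959, and Abcg1 alone passed adjusted p without the fold threshold, for PAM (-0.95, adjusted p = 0.0441). At an unadjusted p under 0.05 there were 0 of the 15 with LPS and 1 with PAM, and DESeq2 called 0.

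Receptors for complement fragments moved in both directions with cGAMP. C5ar1, the receptor for complement fragment C5a, was at 372, 386 and 200 CPM in the triplet, 91.1, 144 and 142 CPM in PAM + LPS, and 724, 636 and 554 CPM in PAM + cGAMP. The triplet lay between both pairs without overlap: cGAMP raised it by 1.26 ± 0.29 (log2, adjusted p = 0.00115) and LPS lowered it (-1.002 ± 0.23, adjusted p = 0.00403). The second call sat at the fold threshold and was lost in 10 of 20 alternative settings, among them leaving out triplet replicate 3 (-0.74, adjusted p = 0.213) or PAM + cGAMP replicate 1 (-0.91) or 2 (-0.9999), and thinning (-0.59, adjusted p = 0.499). C3ar1, the receptor for C3a, was at 77.2, 64.3 and 43.8 CPM against 45.6, 230 and 199 CPM (-1.50 ± 0.33, adjusted p = 0.000585), with PAM + LPS replicate 1 inside the triplet range and a value of -1.78 without it. The C3ar1 call was lost with thinning (-1.01, adjusted p = 0.428). Il18, an inflammasome-dependent cytokine gene, and Pla2g4a, the phospholipase that releases arachidonic acid, were also lower, at -1.09 ± 0.30 (adjusted p = 0.0107) and -1.20 ± 0.36 (adjusted p = 0.0224). With all libraries thinned to equal totals, Il18 turned direction (0.25), and without PAM + LPS replicate 3 it was not called (0.108). Pla2g4a was not called without triplet replicate 2 (0.159) or 3 (0.12), without PAM + LPS replicate 2 (0.173) or 3 (0.0767), in DESeq2 (0.117) or with no filter (0.0915).

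Beside these falls, the summed level of the macrophage and monocyte markers was lower in the triplet than in PAM + LPS. The list summed to 1591 to 1967 CPM in the triplet, 2012 to 2686 CPM in PAM + LPS, 1754 to 1882 CPM in PAM + cGAMP and 1961 to 2141 CPM in LPS + cGAMP, and none of its members in the table was at 0 in all 12 libraries. Of 8 tested members, 2 were called lower with cGAMP, where 1.57% of all genes were: Fcgr1, the high-affinity IgG receptor (-1.31, adjusted p = 4.62e-05), and Ly6c2, a monocyte surface protein (-1.68, adjusted p = 5.06e-05). The other 6 were not called, the median was -0.104 and the highest member was at 0.404. By adjusted p alone 3 were lower, the third being Csf1r, a growth factor receptor gene (-0.68 ± 0.17, adjusted p = 0.00278). Fcgr1 and Ly6c2 are also known to be induced by interferon, and Fcgr1 was 3.02 (log2) higher in cGAMP alone than in Ctrl (adjusted p = 3.38e-12). Ly6c2 was not among the genes with called effects of opposite sign for cGAMP alone and on the pair. The part of these cells in the falls was not tested. Saa3 and C3, chosen after their values were seen, were also lower. Saa3, serum amyloid A3, was at 3419, 2623 and 4302 CPM against 9631, 8553 and 12819 CPM (-1.58 ± 0.17, adjusted p = 2.36e-14). C3, the central complement component, was at 604, 665 and 638 CPM against 1084, 1453 and 1400 CPM (-1.06 ± 0.15, adjusted p = 3.58e-09).

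LPS, added to PAM + cGAMP, raised Nos2 and Il10 among others. Nos2, the inducible nitric oxide synthase (chr11:78920787-78960226), was at 246, 207 and 188 CPM in the triplet and 52.9, 61.5 and 75.2 CPM in PAM + cGAMP. It was at 164, 192 and 323 CPM in PAM + LPS and 131, 152 and 149 CPM in LPS + cGAMP, so the 3 groups with LPS lay above the group without it. The change was 1.72 ± 0.37 (log2, adjusted p = 0.00123), and with thinning 1.24 and not called (adjusted p = 0.318). Beside these changes, the summed dendritic cell markers stood at 4696 to 5524 CPM in the triplet and 3930 to 4388 CPM in PAM + cGAMP, without overlap, and at 4584 to 4797 CPM in PAM + LPS and 4071 to 4965 CPM in LPS + cGAMP, which both overlap the triplet. The TMM factors, not applied to these sums, were 0.909 to 0.944 in the triplet and 0.866 to 0.918 in PAM + cGAMP. Whether the sums overlap with them was not tested. Of 6 of these markers tested, 0 were called with LPS and 1 was higher by adjusted p alone, with a median of 0.0795. That marker was the chemokine gene Ccl22, at a mean of 1510 CPM in the triplet against 918 CPM in PAM + cGAMP (0.71 ± 0.15, adjusted p = 0.000511), which is part of the sum. The part of the shift in the summed markers in the changes with LPS was not tested. Il10, the anti-inflammatory cytokine (chr1:131019845-131024970), was at 84.3, 71.5 and 100 CPM in the triplet, 26.5, 13.7 and 20.5 CPM in PAM + cGAMP, 9.11, 64.1 and 31.9 CPM in PAM + LPS and 26.3, 34.6 and 18.1 CPM in LPS + cGAMP. Every triplet library lay above all 9 pair libraries. The increase passed the test for LPS (2.08 ± 0.56, adjusted p = 0.02), and the values for cGAMP (1.17 ± 0.45, adjusted p = 0.135) and PAM (1.74 ± 0.51, adjusted p = 0.106) did not. The LPS call was lost without triplet replicate 3 (1.94, adjusted p = 0.139), without PAM + cGAMP replicate 2 (1.86, adjusted p = 0.166) or 3 (2.11, adjusted p = 0.0913), and sat at an adjusted p of 0.05 without triplet replicate 1.

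Other rises with LPS had less familiar roles in these cells. Cd200, a surface ligand that restrains myeloid cells, was at 470, 529 and 413 CPM against 168, 226 and 232 CPM (1.15 ± 0.22, adjusted p = 0.000133). Car4, a membrane carbonic anhydrase gene, was at 239, 186 and 206 CPM against 61.8, 47.9 and 82.0 CPM (1.70 ± 0.36, adjusted p = 0.000908). Cd200 and Car4 did not overlap between triplet and pair. Smap2, which regulates vesicle traffic, rose by 2.19 (adjusted p = 0.0123), Rcl1, a ribosome assembly gene, by 2.43 (adjusted p = 0.0348), and Gm13889 had 15 UMIs against 0, at least 4.59-fold higher. Without triplet replicate 3 the calls of Smap2 (adjusted p = 0.0658), Rcl1 (0.27) and Gm13889 (0.231) were lost. Leaving out PAM + cGAMP replicate 2 ended the calls of all 3 as well (0.0902, 0.331 and 0.116), replicate 1 those of Rcl1 (0.123) and Gm13889 (0.0741), replicate 3 those of Smap2 (0.0806) and Gm13889 (0.104), and triplet replicate 1 that of Smap2 (0.0539). Rcl1 was also lost with no filter on low counts (0.0835). Cd40, the receptor through which T cells license dendritic cells, passed adjusted p without the fold threshold (0.77 ± 0.14, adjusted p = 8.9e-05), but not without triplet replicate 3 (0.52, adjusted p = 0.0658).

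Falls with LPS included 2 myeloid surface receptors. Marco, a scavenger receptor for bacteria, was at 800, 822 and 1057 CPM in the triplet and 2144, 2283 and 2187 CPM in PAM + cGAMP (-1.30 ± 0.19, adjusted p = 5.12e-07). PAM + LPS held 1531, 636 and 794 CPM and LPS + cGAMP 1042, 920 and 970 CPM, and the highest mean, 5121 ± 411 CPM (SD, n = 3), was in PAM alone. All groups with LPS therefore lay below both groups that held PAM without it. Clec5a, a lectin receptor that couples to DAP12, was at 35.1, 14.3 and 37.5 CPM against 168, 95.7 and 116 CPM (-2.05 ± 0.43, adjusted p = 0.000903). Marco, Clec5a and Myo1f, a leukocyte myosin gene (-1.60, adjusted p = 0.000584), were called in each fit that left out 1 library, but Myo1f was lost with thinning (-1.004, adjusted p = 0.417). Ints12, a subunit of the Integrator complex (-1.71, adjusted p = 0.0297), Magohb, of the exon junction complex (-1.51, adjusted p = 0.0275), and Metrnl, a secreted protein gene (-1.48, adjusted p = 0.0102), were not. Ints12 was lost without triplet replicate 2 or 3 or PAM + cGAMP replicate 2 (adjusted p from 0.119 to 0.436), Magohb without triplet replicate 2 or PAM + cGAMP replicate 1 or 2 (0.0597 to 0.302), and Metrnl without triplet replicate 3 (0.236) or PAM + cGAMP replicate 1 (0.134). Metrnl was also lost with thinning (-1.18, adjusted p = 0.499), and Ints12 (0.16) and Magohb (0.216) with no filter.

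PAM raised inflammatory genes and their early regulators when added to LPS + cGAMP. Il1a, interleukin 1 alpha, was at 5673, 6162 and 6184 CPM in the triplet and 2713, 3169 and 2906 CPM in LPS + cGAMP, while PAM + LPS (5850, 4985 and 5091 CPM) and PAM + cGAMP (5392, 5605 and 5475 CPM) were near the triplet. The 3 groups with PAM lay above the group without it, by 1.03 ± 0.13 (log2, adjusted p = 5.18e-10) for the triplet. The value was 0.986 without LPS + cGAMP replicate 1 and 0.995 with library size alone, both just under the fold threshold. Cxcl1, a neutrophil chemoattractant (chr5:90891245-90893121), was at 1559, 1251 and 869 CPM against 691, 616 and 420 CPM (1.13 ± 0.20, adjusted p = 3.87e-05). In PAM + LPS it stood at 1376, 593 and 468 CPM, where replicate 1 was again apart. DESeq2 did not call it (adjusted p = 0.0835), and without LPS + cGAMP replicate 3 it fell short of the fold threshold (0.91, adjusted p = 0.0331), as it did without triplet replicate 1 (0.92, adjusted p = 0.0131) and with thinning (0.996, adjusted p = 0.0135). Dusp1, a phosphatase that switches off MAP kinases, was at 232, 272 and 319 CPM in the triplet and 105, 89.9 and 81.2 CPM in LPS + cGAMP (1.61 ± 0.31, adjusted p = 0.000216), a call lost with thinning (1.19, adjusted p = 0.427). It was also higher than in PAM + LPS (54.7, 166 and 156 CPM, 1.00 ± 0.27, adjusted p = 0.00956), a call lost without PAM + LPS replicate 1 (adjusted p = 0.089) or triplet replicate 3 (adjusted p = 0.102), with thinning (0.59, adjusted p = 0.601) and, just under the fold threshold, with no filter (0.992).

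Socs3, which limits signalling by interleukin 6, was at 667, 736 and 1000 CPM against 403, 401 and 361 CPM in LPS + cGAMP (1.06 ± 0.17, adjusted p = 2.46e-06). Edn1, the peptide hormone endothelin, was at 456, 472 and 800 CPM against 280, 298 and 239 CPM (1.11 ± 0.25, adjusted p = 0.00426). Bcl3, an atypical IkB protein, was at 63.2, 78.6 and 213 CPM against 61.3, 34.6 and 22.6 CPM (1.74 ± 0.43, adjusted p = 0.0189), and Ifnb1 was raised by 1.32 ± 0.28 (log2, adjusted p = 0.00225). Triplet replicate 3 was the highest library for Socs3, Edn1, Bcl3 and Ifnb1. Without it Socs3 passed adjusted p only (0.86, adjusted p = 0.00478), and Edn1 (0.79, adjusted p = 0.495), Bcl3 (0.97, adjusted p = 0.898) and Ifnb1 (0.62, adjusted p = 0.898) did not pass. Cxcl1, Dusp1 and Il1a kept their calls without it. Leaving out LPS + cGAMP replicate 3 also ended the calls of Bcl3 (adjusted p = 0.402) and Edn1 (0.142), and replicate 2 that of Bcl3 (0.0966). With thinning Edn1 (0.78, adjusted p = 0.525) and Ifnb1 (1.35, adjusted p = 0.317) were not called for PAM. Bcl3 behaved in the same way for added LPS, at 1.89 ± 0.46 (adjusted p = 0.00576) and 1.12 (adjusted p = 0.5) without that library, and it was also lost without PAM + cGAMP replicate 2 (0.0653) or 3 (0.2).

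Tnf, Il1b, Il6 and Ptgs2, products of the first inflammatory wave, passed adjusted p with PAM but not the fold threshold. Tnf was at 12919, 16991 and 18560 CPM in the triplet, 10442, 9536 and 9207 CPM in PAM + LPS, 22166, 24499 and 25926 CPM in PAM + cGAMP and 7737, 8835 and 8277 CPM in LPS + cGAMP. The triplet thus lay between PAM + cGAMP above it and the other pairs below it, with no overlap. The log2 differences were 0.96 ± 0.15 for PAM (adjusted p = 1.64e-06), 0.73 ± 0.15 for cGAMP (adjusted p = 0.000184) and -0.58 ± 0.15 for LPS (adjusted p = 0.0103). Il1b was at 8117, 7584 and 7835 CPM against 4472, 4518 and 4288 CPM in LPS + cGAMP (0.83 ± 0.11, adjusted p = 2.22e-08). Il6 was at 5062, 5290 and 5603 CPM against 3501, 3204 and 2974 CPM (0.73 ± 0.13, adjusted p = 5.09e-05). Ptgs2, the inducible cyclooxygenase, was at 1566, 1387 and 1370 CPM against 805, 810 and 799 CPM (0.84 ± 0.17, adjusted p = 0.00116). Of 13 inflammatory genes tested, 2 were called higher with PAM (0.148% of all genes) and 9 were higher by adjusted p alone (0.36%), with a median of 0.84 beside -0.0227 for all genes. For cGAMP the list had 1 called higher (1.19% of all genes), 4 higher by adjusted p alone (1.89%) and a median of 0.373. For LPS it had 2 called higher (0.466% of all genes, and 0 members without triplet replicate 3), 2 higher and 2 lower by adjusted p alone (0.763% and 0.847%), and a median of 0.119. With PAM, 1 was called without LPS + cGAMP replicate 3 and 1 in DESeq2.

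**Figure D2:**
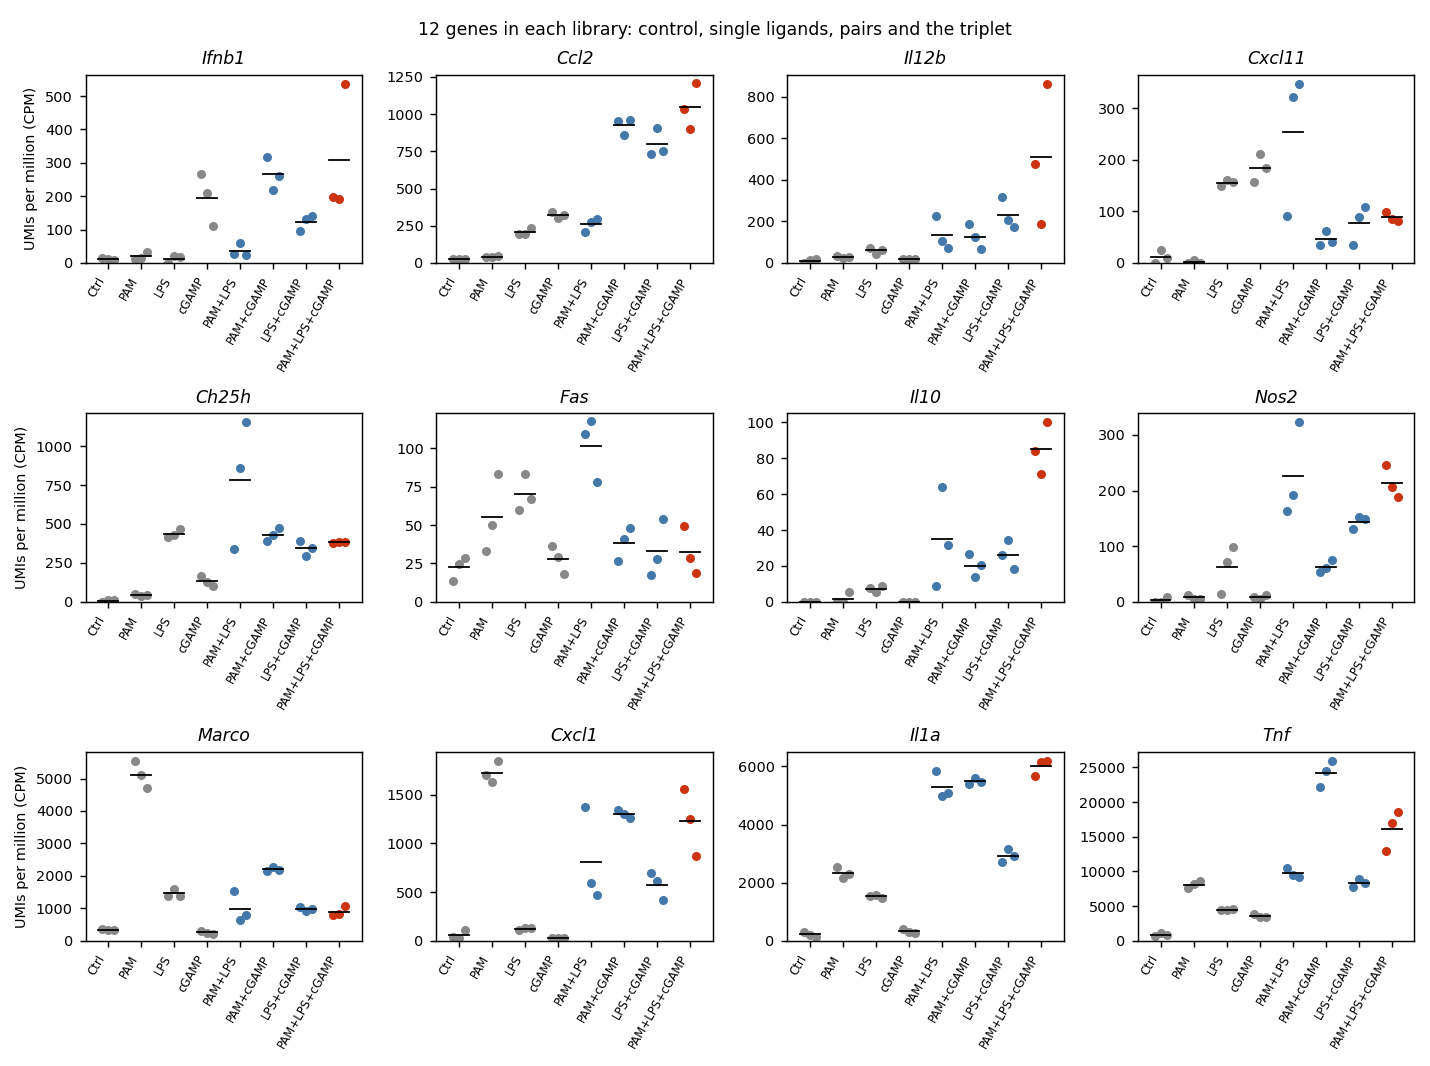
CPM in each library (points) and group means (bars) for 12 genes in Ctrl, the single ligands, the pairs and the triplet; each panel has its own y axis from 0. Ifnb1 and Ccl2 are low in PAM + LPS and high in the groups with cGAMP, Il1a is low in LPS + cGAMP beside the other pairs, and Il10 is highest in the triplet.

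Sequence upstream of the raised genes is shown for 1 gene raised by cGAMP and PAM (Ifnb1) and 2 raised by PAM (Cxcl1 and Il1a). Windows of 300 bases, 250 before and 50 after the start, were taken from RefSeq (GRCm38.p6) for 20 of 29 named rising genes. Both strands were searched for a core of the interferon-stimulated response element, a general NF-kB motif and the AP-1 motif TGACTCA. The response element and NF-kB motifs share the letters GAAA, so their matches can overlap. The motifs occur in 3.44%, 1.63% and 5.20% of all 32851 windows, and in 1, 1 and 1 of the 20. Cxcl1 held 2 matches to the general NF-kB motif, beginning at -89 and -71 relative to the start, Il1a held an AP-1 match at -12 and Edn1 an interferon-response match at -78. Ifnb1 held no exact match to these patterns in its window. Only exact matches were counted, so near matches, such as gggaaattcc in the Ifnb1 window, and elements with other spacing were missed. Capitals mark the matches, which are descriptions of letters and not sites of measured binding. The windows lie at chr4:88522745-88523044 (minus strand) for Ifnb1, chr5:90890995-90891294 (plus strand) for Cxcl1 and chr2:129309923-129310222 (minus strand) for Il1a.
Ifnb1: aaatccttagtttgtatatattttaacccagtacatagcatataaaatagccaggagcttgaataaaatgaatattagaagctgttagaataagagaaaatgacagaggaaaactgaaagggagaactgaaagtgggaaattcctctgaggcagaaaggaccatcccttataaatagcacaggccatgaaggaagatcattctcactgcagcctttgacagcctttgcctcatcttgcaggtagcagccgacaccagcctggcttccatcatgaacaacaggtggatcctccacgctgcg
Cxcl1: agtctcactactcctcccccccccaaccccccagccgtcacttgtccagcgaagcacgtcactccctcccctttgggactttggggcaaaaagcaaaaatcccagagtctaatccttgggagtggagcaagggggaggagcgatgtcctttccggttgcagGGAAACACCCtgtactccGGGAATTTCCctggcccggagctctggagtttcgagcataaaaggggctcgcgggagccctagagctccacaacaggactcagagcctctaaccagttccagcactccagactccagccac
Il1a: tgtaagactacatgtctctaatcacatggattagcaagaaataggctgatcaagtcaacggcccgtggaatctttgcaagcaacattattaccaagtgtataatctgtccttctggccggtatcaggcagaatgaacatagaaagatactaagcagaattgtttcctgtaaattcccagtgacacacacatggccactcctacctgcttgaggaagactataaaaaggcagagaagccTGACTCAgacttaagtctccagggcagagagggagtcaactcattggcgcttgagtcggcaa

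Of 15 interferon-response genes tested, cGAMP raised Oasl1 and lowered Isg20, and the median was -0.0862, where cGAMP alone had moved the same genes by a median of 4.22 over Ctrl. By adjusted p alone 1 was higher and 3 lower, where 4.81% of all genes passed, and at an unadjusted p under 0.05 there were 3 higher and 6 lower, beside 14.9% of all genes. Without PAM + LPS replicate 3 the list had 0 called lower, and 1 lower by adjusted p alone. Further genes known to be induced by interferon, outside the list and chosen after their values were seen, were called lower with cGAMP. These were Ms4a4c (-1.65, adjusted p = 2.03e-07), Slfn4 (-1.30, adjusted p = 6.45e-06), Ly6e (-1.17, adjusted p = 4.03e-06), Batf2 (-1.15, adjusted p = 0.000585) and Ifi27l2a (-1.04, adjusted p = 0.0456). Interferon-induced genes outside the list that did not fall were not counted, so these say nothing about such genes as a group. Ms4a4c was called in every alternative setting run (-1.80 to -1.30). Without PAM + LPS replicate 3, Ly6e (-0.92), Batf2 (-0.98) and Ifi27l2a (-0.60, adjusted p = 0.611) were not called. Batf2 was also lost without triplet replicate 2 (-0.99), and Ifi27l2a without any 1 of the triplet libraries or without PAM + LPS replicate 2 (adjusted p from 0.0779 to 0.182). Ifi27l2a fell just short of the fold threshold with RLE factors (-0.995), library size alone (-0.992), DESeq2 (-0.967) and the fit on 12 libraries (-0.98). With thinning, Ly6e (-0.98), Slfn4 (-0.80, adjusted p = 0.135) and Ifi27l2a (-0.84, adjusted p = 0.451) were not called. With LPS the list had 0 calls and a median of -0.243 (LPS alone 3.87), and with PAM 0 calls and -0.0489 (PAM alone 0.554). At an unadjusted p under 0.05, 5 of the 15 were lower with LPS and 1 with PAM, beside 267 and 145 of all 4720 genes. DESeq2 called 0 of the list in both. For all 15 genes the effect of added cGAMP was smaller than that of cGAMP alone at an adjusted p under 0.05, and the same held for LPS. Ifit1, an antiviral RNA-binding protein gene, was at 5954, 5325 and 5759 CPM in the triplet, 4091, 5471 and 5080 CPM in PAM + LPS, 6653, 7957 and 7273 CPM in PAM + cGAMP and 5514, 5819 and 5768 CPM in LPS + cGAMP, and 218 CPM on average in Ctrl. Its 3 log2 differences were 0.21 (adjusted p = 0.483), -0.36 (0.179) and -0.01 (1). Cxcl10, a chemokine for T cells, had 0.04, -0.35 and -0.09, and Ccl5, a T cell and monocyte chemoattractant, 0.09, 0.25 and 0.03, in the order cGAMP, LPS and PAM added (adjusted p from 0.382 to 0.992). Cxcl9, the interferon-gamma-induced relative of Cxcl10, had -0.38, -0.66 and -0.22, and Il27, the subunit p28 of interleukin 27, 0.49, 1.21 and 0.71, none of which passed (lowest adjusted p 0.274 and 0.146).

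The other lists are small, and 2.75%, 0.869% and 0.148% of all genes were called for cGAMP, LPS and PAM. A count of 0 is near that background and a count of 1 rests on a single gene, so neither is a result about a list. Cytokines (17 tested) had 3 higher and 2 lower with cGAMP, 2 higher with LPS and 2 higher with PAM. Without PAM + LPS replicate 3 the cGAMP count was 3 and 0, and without triplet replicate 3 the LPS count was 0 and the PAM count 1. Chemokines (18 tested) had Ccl2 and Ccl7 higher and Cxcl11 lower with cGAMP, 0 with LPS (2 higher and 4 lower at an unadjusted p under 0.05, 0 in DESeq2) and Cxcl1 higher with PAM, a count that was 0 without LPS + cGAMP replicate 3 and in DESeq2. The NF-kB and feedback regulators (22 tested) had Dusp1 higher and Socs1 lower with cGAMP, Bcl3 higher with LPS, and Bcl3, Socs3 and Dusp1 higher with PAM. Without triplet replicate 3 that list had 0, 0 and 1 higher. Components of the TLR2, TLR4 and STING pathways (21 tested), guanylate-binding proteins and related GTPases (12), MHC class I (16) and class II (8) presentation, glycolysis (21) and oxidative phosphorylation (19) had 0 calls in all 3 comparisons in edgeR. Costimulation and maturation genes (17 tested) had Cd200, and lysosome and scavenging genes (26) Marco, as single calls, both with LPS. In each comparison of the lists with 0 calls, at most 2 members were higher and at most 5 lower at an unadjusted p under 0.05, and DESeq2 called 0. Of all 4720 genes, 281, 223 and 174 were higher at that cut-off and 423, 267 and 145 lower, with cGAMP, LPS and PAM. Lower with cGAMP were 5 of the 21 pathway components and 4 of the 12 guanylate-binding proteins and related GTPases, and with LPS 4 of the 21 glycolysis genes. Tlr3, a receptor for double-stranded RNA outside these lists and chosen after its values were seen, was called lower with cGAMP (-1.34 ± 0.42, adjusted p = 0.0339). That call was lost without triplet replicate 2 (0.16) or 3 (0.15), without PAM + LPS replicate 2 (0.0716) or 3 (0.412) and with no filter on low counts (0.108).

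The genes that a ligand moved on its own had a smaller median effect of that ligand when both others were present. cGAMP alone raised 551 genes over Ctrl (11.7%) with a median log2 fold change of 2.14, and the same genes had a median of -0.171 when cGAMP was added to PAM + LPS, with 22 called higher and 30 lower, where 1.19% and 1.57% of all genes were. It lowered 279 genes (5.91%, and 8.16% by adjusted p alone), by a median of -1.77, which became 0.0372 on the pair, with 1 called higher and 3 lower. LPS alone raised 690 genes (14.6%), by a median of 2.14, which became 0.0183 on top of PAM + cGAMP, with 11 called higher and 6 lower (all genes 0.466% and 0.403%). The 453 genes it lowered (9.6%), by a median of -1.76, had a median of -0.12 on the pair, with 1 called higher and 5 lower. PAM alone raised 378 genes (8.01%), by a median of 1.81, which became 0.0455 on top of LPS + cGAMP, with 3 called higher and 0 lower (all genes 0.148% and 0). The 278 genes it lowered (5.89%), by a median of -1.71, had a median of -0.149 and 0 calls. Tested gene by gene as a difference of effects (adjusted p under 0.05, no fold threshold), added cGAMP was below cGAMP alone for 574 genes (12.2%) and above it for 185 (3.92%). For LPS the counts were 625 (13.2%) and 223 (4.72%), and for PAM 292 (6.19%) and 119 (2.52%). This split moved with the scaling: by library size alone the counts below and above were 464 and 386 for cGAMP, 462 and 483 for LPS and 241 and 164 for PAM, and with RLE factors 508 and 277, 527 and 331, and 239 and 166. The medians describe genes chosen by the ligand's own effect over Ctrl and are no test.

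**Figure D3:**
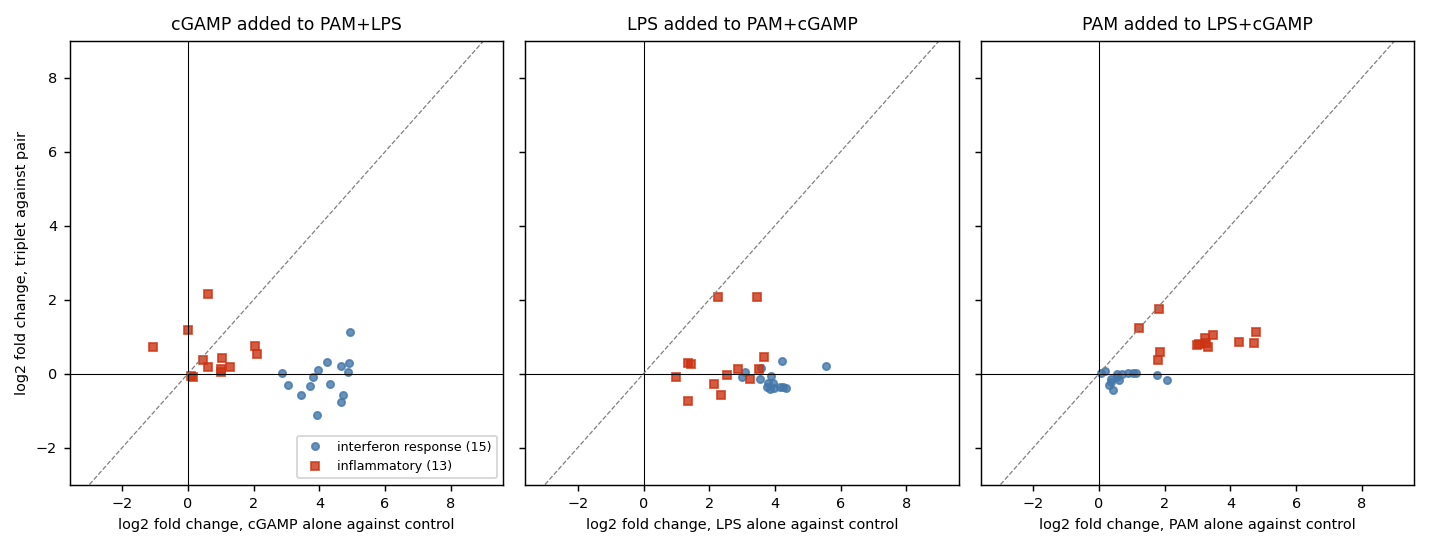
Log2 fold change of the third ligand added to the pair (y axis) against that ligand alone over Ctrl (x axis) for the 15 interferon-response and 13 inflammatory genes, 1 panel for each ligand; the dashed line marks equal effects. The interferon-response genes lie far to the right and near 0 in height for cGAMP (median 4.22 alone, -0.0862 added) and LPS (3.87 and -0.243).

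Most of the raised genes were also called higher when the same ligand was added to a single ligand, in libraries that the comparison with that pair does not use, while most of the genes lowered by cGAMP were not called lower there. Of the 56 genes raised by cGAMP on PAM + LPS, 44 (78.6%) were called higher when cGAMP was added to PAM, where 13.3% of all genes were, and 41 (73.2%) when it was added to LPS, where 2.35% were. Their median log2 fold changes were 1.95 and 1.66. Of the 74 lowered genes, 13 (17.6%) were called lower on PAM (all genes 6.97%) and 24 were called higher there (all genes 13.3%), with a median of 0.514. On LPS, 10 of them (13.5%) were called lower (all genes 0.784%), with a median of -0.536. Of the 22 genes raised by LPS, 15 (68.2%) were called higher on PAM (all genes 14.5%) and 15 on cGAMP (all genes 5.72%). Of the 19 lowered by LPS, 9 (47.4%) were called lower on PAM (9.22%) and 3 (15.8%) on cGAMP (3.22%). Of the 7 raised by PAM, 5 (71.4%) were called higher on LPS (1.38%) and 4 (57.1%) on cGAMP (5.49%). The genes raised by cGAMP had a median difference of 0.0936 from PAM + cGAMP and 0.146 from LPS + cGAMP. The genes lowered by cGAMP were at medians of -0.39 and -0.41 against those pairs.

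**Figure D4:**
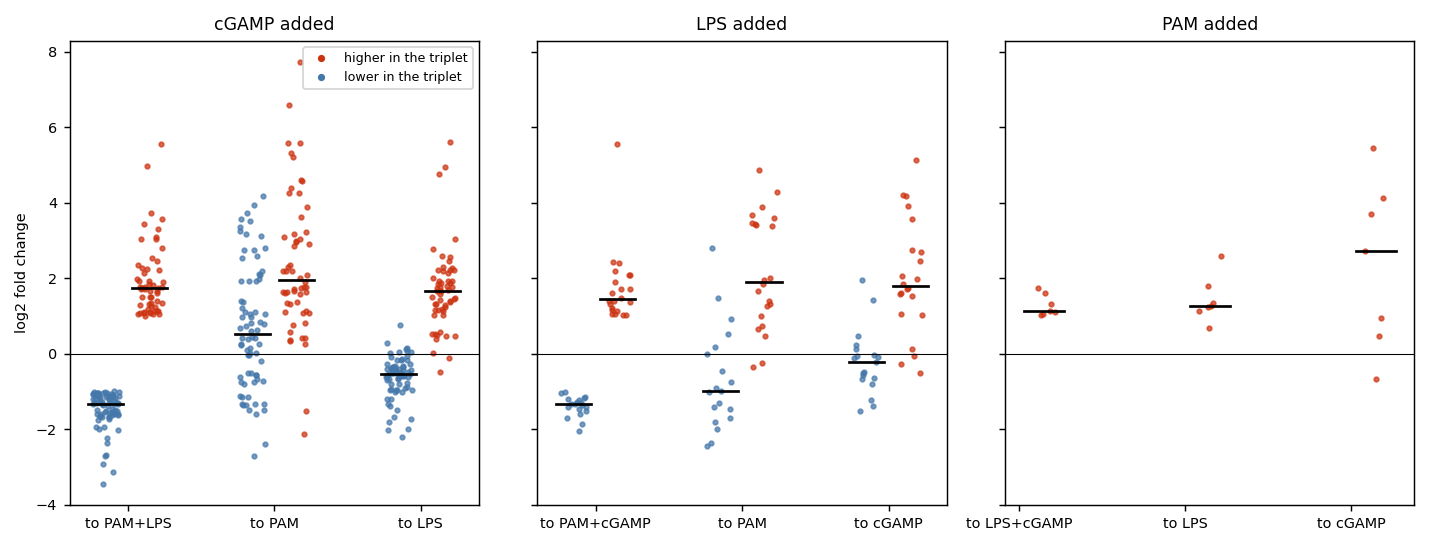
Log2 fold changes (y axis) of the genes called in each comparison when the ligand was added to the pair and when it was added to each single ligand of that pair; points are genes, red called higher and blue called lower on the pair, and bars are medians. The red genes have medians above 0 on both singles for each ligand (1.26 to 2.72), while the blue cGAMP genes have a median of 0.514 on PAM and -0.536 on LPS.

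No gene passed the test for exceeding all 3 pairs, or for lying below all 3. The rule took the largest of the 3 p-values for each gene, adjusted it over all genes, and asked for the same direction in all comparisons; edgeR called 0 above and 0 below, with or without the fold threshold, and DESeq2 0 and 0. At an unadjusted p under 0.05 in each comparison there were 20 genes above (0.424%) and 32 below (0.678%). All 3 triplet libraries lay above all 9 pair libraries for 43 genes (0.911%) and below them for 35 (0.742%). Il12b came nearest among genes above, with a smallest log2 fold change of 1.23 (adjusted p = 0.547). It was the 1 gene called above all pairs without the filter on low counts (adjusted p = 4.25e-05), in a fit of the 24 libraries of these ligands and Ctrl (adjusted p = 0.00389), and without triplet replicate 2 (adjusted p = 0.0131). Ccl22, a chemokine for CCR4-bearing T cells, was at 1482, 1630 and 1420 CPM in the triplet against at most 1232 CPM in the pairs, with a smallest difference of 0.50 (adjusted p = 0.579 in edgeR). Txnip, an inhibitor of thioredoxin, came nearest among genes below, at 63.2, 78.6 and 68.8 CPM against 88.2 to 219 CPM, with a smallest difference of 1.16 (adjusted p = 0.579 in edgeR). By the same rule, 28 of the 35 triplets of the series had no gene beyond all their pairs, and the most found was 7. Among the 105 ways of adding 1 ligand to a pair, cGAMP added here ranked 45th by its 130 calls, LPS 65th with 41 and PAM 78th with 7.

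The three-way interaction on the log2 scale, the triplet minus its pairs plus the single ligands minus Ctrl, was positive for 18 genes (0.381%) and negative for 21 (0.445%) at an adjusted p under 0.05. By library size alone it was positive for 54 and negative for 18, and in DESeq2 for 28 and 31. Il6 had the value -2.67 ± 0.43 (adjusted p = 8.44e-06): the triplet mean of 5318 ± 271 CPM (SD, n = 3) lay between PAM + cGAMP (5896 ± 253) and PAM + LPS (4109 ± 261), while the single ligands stood at 1336, 1266 and 177 CPM for PAM, LPS and cGAMP. Gpr84, a receptor for medium-chain fatty acids, had 2.52 ± 0.57 (adjusted p = 0.00552), with 206 CPM on average in the triplet against 408, 340 and 199 CPM in PAM + LPS, PAM + cGAMP and LPS + cGAMP, and 677 and 466 CPM in PAM and LPS alone. Pim1, a survival kinase gene, had -3.73 ± 0.84 (adjusted p = 0.00453), Syf2, a splicing factor gene, -3.25 ± 0.81 (adjusted p = 0.0155) and Inhba, the activin A subunit, -3.57 ± 0.98 (adjusted p = 0.0436). Clic5, an intracellular chloride channel gene (-8.94 ± 2.19, adjusted p = 0.0127), was at 0 in the PAM libraries, so the size of its value depends on the fit. Zfp131, a zinc finger gene, Ccdc88b, a microtubule-linked gene of immune cells, and Ms4a6c, a membrane protein gene of myeloid cells, had 4.46, 2.33 and 2.03 (adjusted p 0.0299, 0.0299 and 0.0255). These 3 and Inhba did not pass without triplet replicate 3 (adjusted p 0.0687 to 0.0741) and each had from 2 to 4 other libraries whose removal ended the call, and Ctrl, in which Zfp131 had 0, 0 and 9.60 CPM, enters each value. With thinning Gpr84, Pim1, Syf2, Inhba, Ccdc88b and Ms4a6c did not pass (adjusted p from 0.157 to 0.625), and Ms4a6c moved to 0.96. With no filter Syf2 (0.0727) and Zfp131 (0.0761) did not pass.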

How the data were processed

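Counts were UMI counts per gene, as deposited by the authors: 23481 gene symbols in 192 libraries, with 157120 to 179089 UMIs per library in the triplet and 116312 to 333995 in the pairs. Per the labels' protocols, total RNA was barcoded during reverse transcription with template switching and sequenced on a NextSeq550; per the submitters' processing notes, BWA 0.7.15 and the mouse build mm10 were used. The annotation, UMI collapsing rule and treatment of reads that match several genes are not given in the sources used here. All libraries were fitted together in edgeR 4.0.16 (R 4.3.3, limma 3.58.1), with 1 coefficient for each of the 64 groups, TMM factors, filterByExpr (4720 genes, 95.72% of UMIs) and 128 residual degrees of freedom. A three-way interaction and the difference between a ligand added to the pair and alone were contrasts of the same fit. SEs are of log2 fold changes.

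Genes were named by rule: for each added ligand, up to 8 called genes with the largest rise and 6 with the largest fall, at 20 CPM or more on average in triplet or pair and without overlap; the 4 largest interactions of each sign; 14 cytokines and effectors by name; and up to 3 called members of each list. The members, lists and rule were chosen with earlier results of these data known. Alternatives were RLE factors, library size alone, no filter, DESeq2 1.42.0, fits on 12 and 24 libraries, thinning to equal totals, a replicate block, no fold threshold and leaving out each of the 12 triplet and pair libraries. The comparison with ligands added to singles was chosen after seeing the data. Intervals for ratios of UMIs are exact at 95%. A few named genes are not reported here.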

Additional observations from a re-analysis of the deposited data

Results flagged for a closer look

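A tested difference between adding a ligand to the pair and giving it alone, with called effects of opposite sign, was found for 38 genes (31 for cGAMP and 7 for LPS), of which those described in the report follow. Values are log2 fold changes, with the difference (added minus alone), its SE and the adjusted p of edgeR's quasi-likelihood test on that difference. Cxcl11 was 3.91 higher in cGAMP alone than in Ctrl and 1.64 lower when cGAMP joined PAM + LPS, a log2 difference of -5.551 ± 0.7718 (adjusted p = 4.5e-10). For cGAMP the difference was -5.055 ± 0.7459 for Ch25h (adjusted p = 4.11e-09), -5.065 ± 0.5488 for Isg20 (adjusted p = 2.01e-15), -4.941 ± 0.5264 for Socs1 (adjusted p = 7.4e-16) and -4.227 ± 0.6872 for Tnfsf10 (adjusted p = 1.13e-07). Scimp was raised by cGAMP alone and by LPS alone and lowered by each on its pair, with differences of -5.935 ± 0.8748 for cGAMP (adjusted p = 4.02e-09) and -5.007 ± 0.9414 for LPS (adjusted p = 5.01e-06). Marco was 2.12 higher in LPS alone than in Ctrl and lower by 1.30 when LPS joined PAM + cGAMP, a difference of -3.415 ± 0.3203 (adjusted p = 1.28e-19). For 6 further genes raised by cGAMP alone and lowered on the pair, the difference was -5.744 ± 0.9161 for Tlr3 (adjusted p = 6.2e-08), -5.217 ± 0.6787 for Ms4a4c (2.56e-11), -3.847 ± 0.6373 for Slfn4 (1.95e-07), -3.455 ± 0.5443 for Batf2 (4.14e-08), -3.431 ± 0.7145 for Ifi27l2a (5.47e-05) and -2.516 ± 0.3148 for Ly6e (4.09e-12). C3 and Fcgr1, also lowered by cGAMP on the pair, were 1.96 and 3.02 higher in cGAMP alone than in Ctrl, with differences of -3.022 ± 0.2503 (adjusted p = 1.07e-23) and -4.337 ± 0.4538 (adjusted p = 2.43e-16). Magohb differed in the same direction for LPS (-3.131 ± 0.7417, adjusted p = 0.000504). Trmt2a was lower in cGAMP alone and higher on the pair (5.302 ± 1.052, adjusted p = 2.04e-05), and Smap2 likewise for LPS (3.567 ± 0.7069, adjusted p = 1.7e-05). Several calls on the pair, among them those of Trmt2a, Smap2, Magohb and Tnfsf10, were lost with single libraries left out, as given in the report.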

How the results depend on the processing

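With 1 of the 12 triplet and pair libraries left out (single-ligand and Ctrl libraries were always kept), genes higher with added cGAMP ranged from 30 to 67 and lower from 41 to 97, with LPS from 11 to 22 and from 8 to 20, and with PAM from 3 to 10 and from 0 to 1. Genes above all pairs ranged from 0 to 1 and below from 0 to 0. Against the ligand alone, positive and negative counts ranged from 149 to 196 and 510 to 598 for cGAMP, 173 to 221 and 573 to 626 for LPS, and 90 to 121 and 259 to 295 for PAM, and the three-way counts from 17 to 22 and 16 to 29. DESeq2 gave 49 genes lower with cGAMP, 1 lower with PAM, 116 positive for cGAMP against cGAMP alone and 28 positive three-way. Fits on 12 libraries gave 1 gene lower with PAM, and on 24 libraries 11 higher and 2 lower with PAM and 1 above all pairs. Thinning to equal totals, with 1834 genes tested, gave 20 higher and 17 lower with cGAMP, 17 higher and 6 lower with LPS, 5 higher and 2 lower with PAM, 103 and 276 (cGAMP), 105 and 336 (LPS) and 59 and 160 (PAM) positive and negative against the ligand alone, and 11 and 7 three-way. Library size alone gave 386 and 483 positive for cGAMP and LPS against the ligand alone and 54 three-way, and no filter gave 77, 74 and 67 positive for cGAMP, LPS and PAM, 11 negative three-way and 1 above all pairs. Without the fold threshold there were 89 and 138 genes with cGAMP, 36 and 40 with LPS, and 17 and 1 with PAM.

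Log2 values that changed sign with 1 library left out had these ranges. With cGAMP added they were -0.0137 to 0.19 for Ccl5, -0.19 to 0.21 for Cd40, -0.0912 to 0.16 for Cxcl10, -0.20 to 0.0742 for Il1b and -0.32 to 0.23 for Nos2. With LPS added the range was -0.43 to 0.51 for Ifnb1, and with PAM added -0.0686 to 0.14 for Ccl5, -0.0408 to 0.0382 for Ifit1 and -0.45 to 0.10 for Cxcl9. Thinning turned Nos2 (0.87) and Il18 (0.25, called lower in the report) with cGAMP, and Ifnb1 (-0.0231) and Il6 (0.0356) with LPS. With PAM, Ccl5 was -0.0064 by library size, and Ifit1 was 0.0138 (RLE), 0.0408 (no filter), 0.0193 (DESeq2), 0.0062 (24 libraries) and 0.0029 (12 libraries). Il18 was the only one of these values that had been called, and the causes were not tested.

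With the replicate number as a block, 132 genes were called with cGAMP (57 higher, 75 lower, 129 shared with the unblocked calls), 41 with LPS (22 and 19, 41 shared) and 10 with PAM (10 and 0, 7 shared). Same-numbered libraries had correlations of deviations from -0.0367 to 0.0835 over 18 pairs, and 7 of 12 libraries correlated best with their own number, so the numbers were not taken to pair the libraries. Of 68 called values of named genes, leaving out 1 library ended from 2 (PAM + LPS replicate 1) to 23 (triplet replicate 3), the block 0, library size alone 4, no filter 10 and DESeq2 4 of 42 with a DESeq2 value. Thinning ended 23 of 43 and turned 1. Those it ended were Pcna, Dusp1, Socs1, Isg20, Tnfsf10, C3ar1, Idi1 and Cxcl11 with cGAMP, Nos2, C5ar1, Metrnl and Myo1f with LPS, Dusp1, Ifnb1, Cxcl1 and Edn1 with PAM, the three-way values of Gpr84, Ccdc88b, Ms4a6c, Syf2, Inhba and Pim1, and 1 gene not reported here.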
